A study of Mus musculus with 24 samples.

Results

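Messenger RNA of 8 genes for steroid hormone metabolizing enzymes was followed in carotid arteries of ovariectomized mice that received vehicle, an estrogen or tamoxifen. The 8 genes were Hsd17b1, Hsd17b2, Hsd17b4, Hsd17b11, Hsd17b12, Hsd11b1, Sult1e1 and Srd5a1, and each was found by its symbol in the GENCODE M21 annotation among the 55421 genes of the count tables. Of these 8 genes, 6 had enough reads to be tested, while Hsd17b2 and Sult1e1 were at or close to 0 counts in the 24 libraries. Hsd11b1 had the lowest adjusted p among the members in a test over all groups: it was higher in E2 and in E4 than in OVX arteries, and it was lower under tamoxifen than under E2.

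A tissue can set the amount of active hormone in its own cells by converting steroids after they arrive from the blood. Hydroxysteroid dehydrogenases do this by oxidizing a single hydroxyl group on the steroid to a keto group, or by reducing that keto group. This switches estradiol and estrone, or active and inactive glucocorticoid, into each other. Sulfotransferases mask a hydroxyl group, so that the steroid no longer binds its receptor, and the steroid reductase encoded by Srd5a1 reduces a double bond of testosterone and progesterone.

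The animals were C57BL/6 female mice, all ovariectomized, labelled as 9 weeks old, and RNA came from carotid arteries without injury. The 4 groups of 6 mice were OVX (a cholesterol pellet with no hormone), E2 (estradiol), E4 (estetrol, a fetal estrogen with further hydroxyl groups) and TAM (tamoxifen, a selective estrogen receptor modulator). The pellets held different amounts of E2 and E4, chosen in the study for a like effect on the uterus, and the tamoxifen dose is not given in the sources used here. The titles name the E4 libraries as E4, but their treatment field reads Placebo, and the title was followed. Treatment length was given differently by the sources, so no time is printed, and each library was taken as 1 mouse.

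Libraries held between 24647246 and 64221401 assigned reads (median 45156106), and values below are CPM (read counts scaled to the library's size, with TMM factors), or log2 fold changes from the quasi-likelihood test of edgeR, whose p-values were adjusted over 25056 genes by Benjamini-Hochberg. A whole carotid artery was sampled, so fewer cells of a type and less RNA per cell cannot be told apart. The 7 smooth muscle markers summed to between 2562 and 9064 CPM and the 7 endothelial markers to between 552 and 1195 CPM. Markers of neighbouring tissue were present as well. Sympathetic ganglion markers summed to between 1708 and 6874 CPM in 22 libraries but to 23.9 CPM in OVX C5 and 159 CPM in TAM C35. White adipocyte markers ranged from 2849 to 6931 CPM, and thyroid and parathyroid markers reached 2989 CPM in E4 C38 alone. Values of the members without OVX C5 and TAM C35 are given where their call changed.

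All 8 members are protein-coding genes, placed here on GRCm38. Hsd11b1 lies on the minus strand at chr1:193221634-193264075, Hsd17b12 on the minus strand at chr2:94032689-94157964 and Srd5a1 on the minus strand at chr13:69573449-69611442. On chromosome 5, Hsd17b11 (chr5:103989762-104021919) and Sult1e1 (chr5:87575969-87591594) are both on the minus strand. Hsd17b1 (chr11:101078411-101080527) and Hsd17b2 (chr8:117701904-117759027) are on the plus strand, as is Hsd17b4. Exons of Srd5a1 overlap those of the same-strand gene Gm17108 over 16.4% of their length, so that some of its reads may have been shared, and no other member overlaps an annotated exon of another gene.

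Sequences before the start sites are shown for the pair of members that rose, for Srd5a1, whose groups were close to the threshold, and for the nearly undetected Sult1e1. They come from RefSeq (GRCm38.p6, all on the minus strand, 5′ to 3′), stop where a GENCODE transcript begins, and have in capitals each match, on either strand, to the CCAAT box, the GC box (GGGCGG), the half-site of the estrogen response element (GGTCA), the TATA box (TATAAA) and the half-site of the glucocorticoid response element (AGAACA). The window of Hsd11b1 lies within an annotated transcript, and only 30 bases around its CCAAT match are shown.
Hsd11b1, chr1:193242415-193242444: tcccacccaaagCCAATcgttgctctgaca
Hsd17b11, chr5:104021920-104022046: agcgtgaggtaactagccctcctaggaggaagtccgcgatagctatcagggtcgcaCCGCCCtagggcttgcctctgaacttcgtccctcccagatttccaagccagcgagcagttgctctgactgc
Srd5a1, chr13:69611464-69611713: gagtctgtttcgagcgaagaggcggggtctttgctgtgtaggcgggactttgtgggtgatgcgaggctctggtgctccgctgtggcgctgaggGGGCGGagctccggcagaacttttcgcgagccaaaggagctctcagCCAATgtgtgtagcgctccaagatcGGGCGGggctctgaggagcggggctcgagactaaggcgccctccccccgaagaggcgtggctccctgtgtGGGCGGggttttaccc
Sult1e1, chr5:87591612-87591861: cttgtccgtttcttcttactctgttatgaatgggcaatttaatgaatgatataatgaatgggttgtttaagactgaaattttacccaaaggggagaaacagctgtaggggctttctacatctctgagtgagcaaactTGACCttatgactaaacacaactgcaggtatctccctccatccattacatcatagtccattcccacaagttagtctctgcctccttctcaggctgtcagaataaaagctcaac

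Among these windows of 250 bases, the estrogen response element half-site was found in Sult1e1 only, as TGACC on the printed strand, 113 bases before the start. This motif stood in 35.2% of the 32851 windows of all genes. The full estrogen response element, a palindrome of such half-sites, present in 0.0639% of all windows, had no match in any of these 4 windows. CCAAT matched in Hsd11b1, Srd5a1 and Hsd17b11, in the last of these beyond the printed bases, against 33.8% of all windows. The GC box matched 3 times in Srd5a1 and once in Hsd17b11, against 32.7% of all windows. The TATA box, in 12.4% of all windows, and the glucocorticoid half-site, in 16.1%, had no match in these 4 windows. The window of Hsd17b12, not printed here, had 2 CCAAT matches and 1 GC box and no match to the other motifs. These matches are a description of letters and say nothing of binding.

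Per length of exon, the 6 tested members spanned a wide range of levels. Hsd17b12 was the most abundant at 58.4 CPM per kb over the 24 libraries, followed by Hsd17b11 at 29.5, Hsd17b4 at 23.7, Hsd11b1 at 9.22, Srd5a1 at 2.47 and Hsd17b1 at 0.388 CPM per kb. Among all tested genes on this scale, Hsd17b12 stood at the percentile 95.1, Hsd11b1 at 71.9 and Hsd17b1 at 14.7. The enzymes with the highest level per length, Hsd17b12, Hsd17b11 and Hsd17b4, are also known for roles in lipid metabolism, and the estrogen-activating Hsd17b1 was the lowest of those tested.

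**Figure D1:**
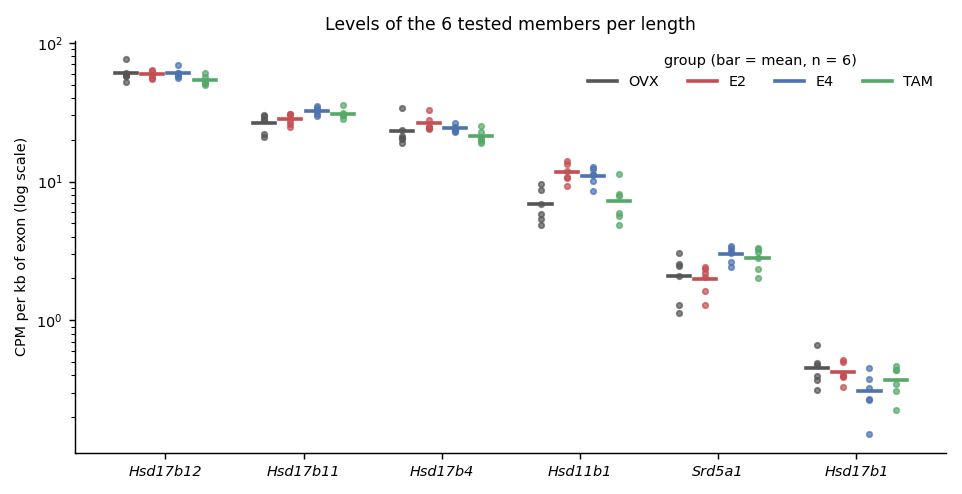
Levels of the 6 tested members in CPM per kb of exon on a log axis, with 1 point per library and a bar at the mean of each group (n = 6). Hsd17b12 lies highest, near 58.4 CPM per kb, and Hsd17b1 lowest, near 0.388 CPM per kb, and the 4 groups of Hsd17b12 overlap.

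Hsd11b1 encodes the enzyme of the endoplasmic reticulum that regenerates active glucocorticoid, corticosterone in the mouse, from its inactive keto form. Its lowest, median and highest level was 20.6, 27.04 and 40.7 CPM in OVX and 39.7, 48.5 and 60.1 CPM in E2. In E4 these values were 36.5, 47.8 and 54.2 CPM, and in TAM 20.6, 29.2 and 47.9 CPM. Of the 6 libraries of each estrogen group, 5 lay above every OVX library. The overlap with E2 came from OVX C5 and that with E4 from OVX C3 and OVX C5, and the TAM range spanned that of OVX.

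In E2 arteries, Hsd11b1 was 1.70-fold the OVX level (log2 fold change 0.77, SE 0.18, 95% interval 0.39 to 1.15, n = 6 per group, edgeR adjusted p = 0.0149). In E4 arteries it was 1.61-fold the OVX level (log2 fold change 0.68, SE 0.18, interval 0.30 to 1.07, edgeR adjusted p = 0.0121). Each of the 6 libraries of either group exceeded the OVX median. Both calls were kept in all 24 fits that left out 1 library, with edgeR adjusted p between 0.00351 and 0.0417 for E2 and between 0.00393 and 0.0280 for E4, but the E4 call was lost with the B cell list as a covariate (log2 fold change 1.05, adjusted p = 0.0595). The E2 call was lost with the macrophage list as a covariate (0.30, edgeR adjusted p = 0.546), a list that cannot be told apart from the E2 treatment. The difference of E4 from E2 was -0.08 and did not pass the test (interval -0.46 to 0.30, edgeR adjusted p = 0.780).

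Under tamoxifen, the difference of Hsd11b1 from OVX did not pass the test (log2 fold change 0.08, interval -0.30 to 0.46, edgeR adjusted p = 0.840). It was 0.621 times the E2 level (log2 fold change -0.69, SE 0.18, interval -1.07 to -0.31, edgeR adjusted p = 0.0255), a call that was lost when only these groups were fitted (-0.67, adjusted p = 0.0756). Against E4 the difference did not pass the test (log2 fold change -0.60, interval -0.98 to -0.22, unadjusted p = 0.00327, edgeR adjusted p = 0.228). Ordered by mean, the groups were E2 (49.7 ± 7.68 CPM, SD), E4 (46.9 ± 6.54), TAM (30.9 ± 9.96) and OVX (29.2 ± 8.11), and no pair of neighbours in this order differed past the test. A test for any difference among the 4 groups gave an edgeR adjusted p of 0.00548 for Hsd11b1, and 21.0% of all genes passed it.

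The highest Hsd11b1 levels in OVX were those of OVX C5 (40.7 CPM) and OVX C3 (37.1 CPM), and the highest in TAM was that of TAM C35 (47.9 CPM), where OVX C5 and TAM C35 are the libraries with the lowest ganglion markers. Without OVX C5 and TAM C35, the log2 fold change was 0.89 for E2 against OVX (edgeR adjusted p = 0.000493), 0.82 for E4 against OVX (adjusted p = 0.00137) and -0.85 for TAM against E2 (adjusted p = 0.000870). TAM against E4 then passed the test as well (-0.78, edgeR adjusted p = 0.0136). The call for TAM against E2 was lost without E2 C8, E2 C9, TAM C12, TAM C13 or TAM C32, each left out singly, with a highest adjusted p of 0.0706.

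Animal numbers fell into a first range of 13 and a second range of 11 mice, whose meaning the labels do not give. Within the first and the second range, Hsd11b1 differed by 0.83 and 0.75 (log2) between E2 and OVX, by 0.72 and 0.71 between E4 and OVX, and by -0.98 and -0.39 between TAM and E2. The direction held in both ranges, though with these fewer mice only TAM against E2 in the first range passed the test (edgeR adjusted p = 0.0461).

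Markers of other cells differed between the groups as well. All 6 macrophage markers rose in E2, where they summed to 463 to 591 CPM against 238 to 416 CPM in OVX, 186 to 354 CPM in E4 and 246 to 285 CPM in TAM. White adipocyte markers summed to 4103 to 6471 CPM in E2, 3103 to 6931 CPM in OVX, 3427 to 5013 CPM in E4 and 2849 to 4129 CPM in TAM, and of these 6 markers 1 rose in E2 against OVX, 1 rose and 2 fell in E4 against OVX, and 2 fell in TAM against E2. With the adipocyte list as a covariate, Hsd11b1 still differed between E2 and OVX (log2 0.50, edgeR adjusted p = 0.0412) and between E4 and OVX (0.92, adjusted p = 0.000333), and the difference of TAM from E2 did not pass (-0.02, adjusted p = 0.972). With the macrophage list as a covariate, a fit chosen after the data were seen, E2 against OVX no longer passed, as given above, TAM against E2 was -0.15 (edgeR adjusted p = 0.819) and E4 against OVX was 0.77 (adjusted p = 0.00606). All 6 B cell markers fell in E4 against OVX, and with that list as a covariate, under which 102 genes in all passed in E4 against OVX in place of 5511, Hsd11b1 no longer passed there, as given above. Fibroblast markers summed to 2538 to 4128 CPM in E4 and 3730 to 5725 CPM in OVX, with 4 of 6 lower in E4, and their part in the result was not tested. Macrophage sums did not overlap between E2 and the other groups, so that this list and the E2 treatment cannot be told apart.

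**Figure D2:**
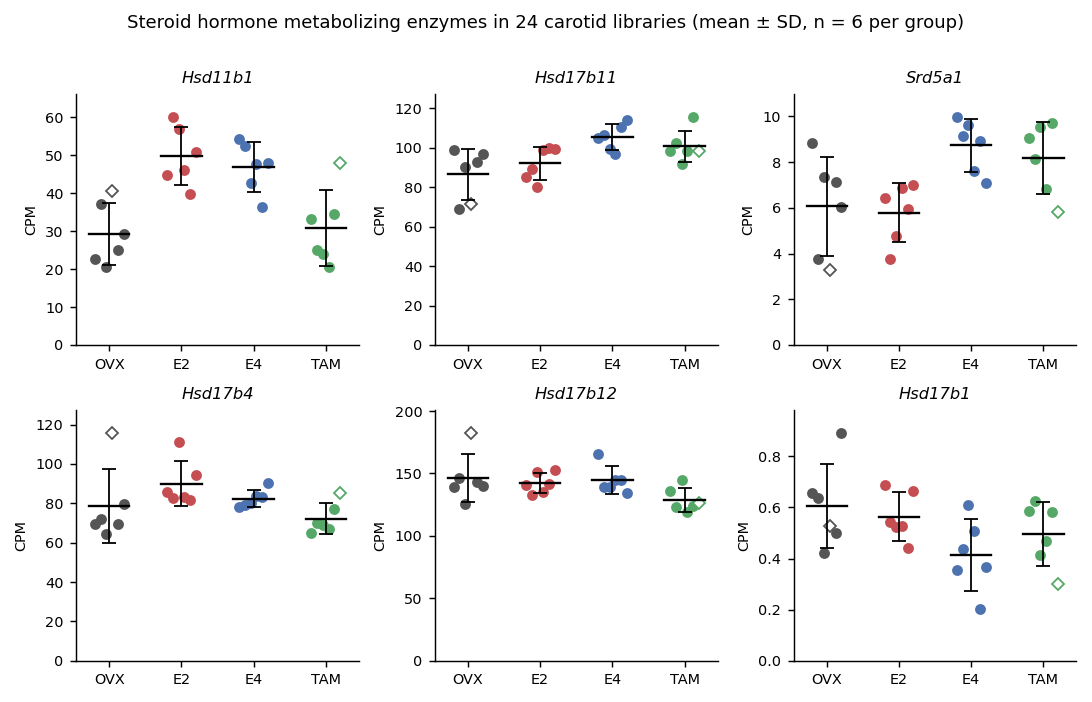
Level of each tested member in CPM in every library, by group, with the mean and SD (n = 6 per group) and open diamonds for OVX C5 and TAM C35. In Hsd11b1, 5 of 6 libraries of E2 and of E4 lie above every OVX library, and in Srd5a1 all 6 E4 libraries lie above the E2 libraries.

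The intracellular partner of Hsd11b1 is hexose-6-phosphate dehydrogenase, encoded by H6pd, which supplies the reduced cofactor that the reductase direction needs, and Hsd11b2 encodes the opposing enzyme that inactivates glucocorticoid. Both were singled out for this role after their values were seen. Its lowest, median and highest level was 88.1, 94.7 and 162 CPM in OVX and 121, 155 and 160 CPM in E4, and it rose in E4 (log2 fold change 0.47, SE 0.14, edgeR adjusted p = 0.0217). The ranges overlapped through OVX C5 at 162 CPM, and without OVX C5 and TAM C35 the change was 0.63 (edgeR adjusted p = 0.000235). The call was lost without OVX C3 (adjusted p = 0.0548) and with the B cell list as a covariate (0.68, adjusted p = 0.121). With that covariate 0.407% of all genes passed in E4 against OVX, in place of 22.0%. In E2 the H6pd value was 0.41 above OVX (edgeR adjusted p = 0.109), or 0.56 without OVX C5 and TAM C35 (adjusted p = 0.000422). Hsd11b2 was low, at a mean of 0.387 CPM in OVX and 0.202 CPM in E2, and passed no test (E2 against OVX -0.94, interval -1.74 to -0.14, edgeR adjusted p = 0.209).

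Hsd17b11 encodes a dehydrogenase of lipid droplets that also acts on steroids. Its lowest, median and highest level was 68.9, 91.4 and 98.7 CPM in OVX, 80.1, 93.9 and 99.8 CPM in E2, 97.1, 106 and 114 CPM in E4, and 91.6, 98.3 and 116 CPM in TAM. Of the E4 libraries, 5 lay above every OVX library, and OVX C3 and OVX C5 were the low values of their group. Hsd17b11 rose in E4 to 1.22-fold the OVX level (log2 fold change 0.29, SE 0.09, interval 0.10 to 0.47, edgeR adjusted p = 0.0244). The other comparisons did not pass, with TAM at 0.22 above OVX (edgeR adjusted p = 0.158) and E4 at 0.20 above E2 (adjusted p = 0.137).

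The call of Hsd17b11 was lost without OVX C3 or without OVX C5, at edgeR adjusted p values up to 0.0693. Within the first and second range of animal numbers the difference of E4 from OVX was 0.33 and 0.19 (log2). B cell markers moved opposite to this gene: all 6 fell in E4 against OVX, where they summed to 3.20 to 7.23 CPM against 5.33 to 35.3 CPM in OVX, 5.25 to 16.04 CPM in E2 and 3.85 to 11.1 CPM in TAM. With the B cell list as a covariate the difference was 0.11 (edgeR adjusted p = 0.749), with the ganglion list it was 0.21 (adjusted p = 0.0787) and with the white adipocyte list 0.24 (adjusted p = 0.0531). Of all genes, 0.407% passed in E4 against OVX in the B cell fit, in place of 22.0%. Hsd17b11 was also not called when only E4 and OVX were fitted (0.29, adjusted p = 0.0589). Of the 6 fibroblast markers, 4 were lower in E4 as well (median of the list -0.61), as was 1 of the 6 T cell markers (median -1.67). Over the 24 libraries, the log2 level of Hsd17b11 had a Pearson r of -0.72 with the mean log2 level of the B cell markers, of -0.66 with that of the T cell markers and of -0.46 with that of the fibroblast markers, as a description. The part of the T cell and fibroblast markers in the result was not tested.

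Srd5a1 encodes steroid 5-alpha-reductase type 1. Its lowest, median and highest level was 3.27, 6.59 and 8.84 CPM in OVX, 3.76, 6.17 and 6.999 CPM in E2, 7.08, 9.02 and 9.97 CPM in E4, and 5.83, 8.59 and 9.72 CPM in TAM. All 6 E4 libraries lay above all 6 E2 libraries, a separation that 6.16% of all tested genes had in this comparison, and each of the other pairs of groups overlapped. The difference of E4 from E2 was 0.59 on the log2 scale (SE 0.20, interval 0.17 to 1.01, edgeR adjusted p = 0.0566) and that of E4 from OVX was 0.52 (SE 0.20, interval 0.10 to 0.94, adjusted p = 0.0669). Neither passed, and TAM stood 0.50 above E2 (edgeR adjusted p = 0.148) and 0.43 above OVX (adjusted p = 0.227).

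The Srd5a1 values lay near the threshold and crossed it with small changes of the fit. Without OVX C5 and TAM C35, E4 exceeded E2 by 0.61 (edgeR adjusted p = 0.0148) and TAM exceeded E2 by 0.59 (adjusted p = 0.0328). DESeq2 called E4 against E2 (0.61, adjusted p = 0.0287) and E4 against OVX (0.54, adjusted p = 0.0418). Within the first and second range of animal numbers, the difference of E4 from E2 was 0.94 and 0.27. The ganglion markers summed to 3969 to 6874 CPM in E4, 1708 to 4900 CPM in E2, 23.9 to 4891 CPM in OVX and 159 to 6487 CPM in TAM, none of the 7 passed the test in any comparison, and their mean log2 level had an r of 0.71 with that of Srd5a1 over the 24 libraries and of 0.91 over the 22 without OVX C5 and TAM C35. With that list as a covariate, E4 exceeded E2 by 0.46 (edgeR adjusted p = 0.0285). With the white adipocyte list, whose r with Srd5a1 was -0.76, the difference was 0.07 (adjusted p = 0.891). All 6 macrophage markers, all 6 T cell markers and 4 of 6 fibroblast markers were lower in E4 than in E2, with a median log2 fold change of -1.08, -2.90 and -0.55. Their r with Srd5a1 over the 24 libraries was -0.53, -0.63 and -0.67. T cell markers in E2 summed to 130 CPM in C9 and to 5.96 to 17.3 CPM in the other libraries. Their group median was 7.80 CPM in E2 and 4.26 CPM in E4. For Srd5a1, the sign of the difference of E4 from E2 turned with the macrophage list as a covariate (-0.10, edgeR adjusted p = 0.916), and with the B cell list it was 0.38 (adjusted p = 0.337). The macrophage list and the E2 treatment cannot be told apart. The part of the T cell and fibroblast markers was not tested.

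**Figure D3:**
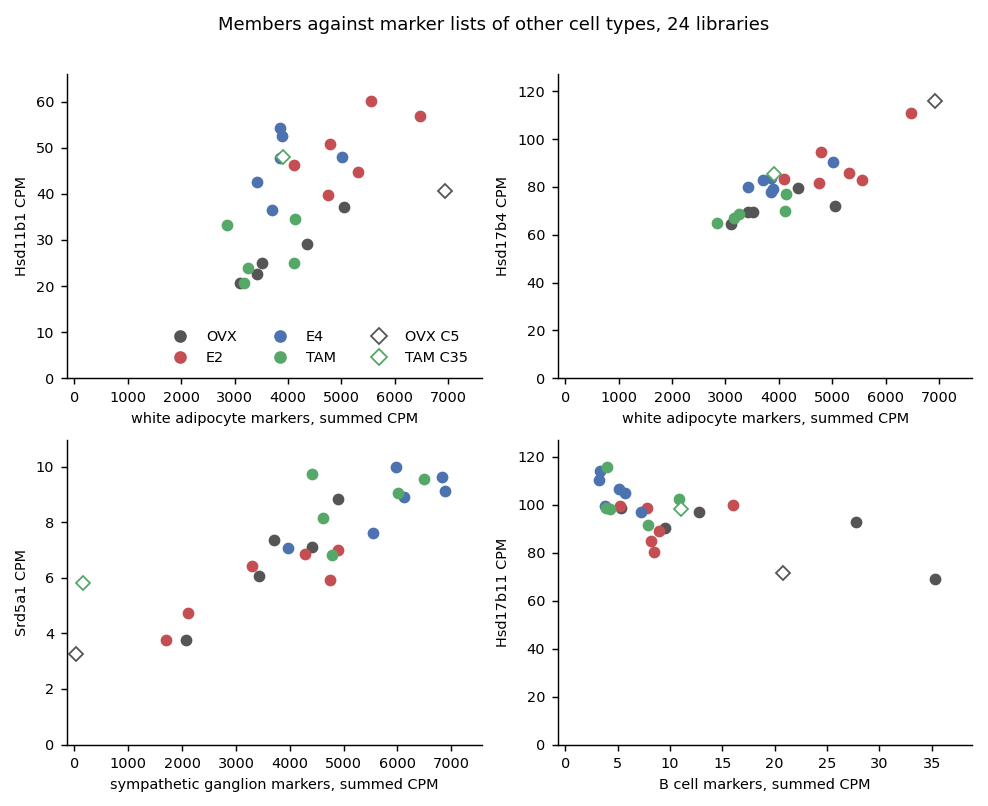
Level of Hsd11b1, Hsd17b4, Srd5a1 and Hsd17b11 in CPM against the summed CPM of white adipocyte, sympathetic ganglion or B cell markers, with 1 point per library, coloured by group, and open diamonds for OVX C5 and TAM C35. Srd5a1 is lowest in OVX C5, which has the fewest ganglion markers, Hsd17b4 is highest in OVX C5 and E2 C9, which have the most adipocyte markers, and Hsd17b11 is lowest in OVX C3, which has the most B cell markers.

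Hsd17b4 encodes the peroxisomal multifunctional enzyme of fatty acid breakdown, which can also oxidize estradiol. Its lowest, median and highest level was 64.6, 70.8 and 116 CPM in OVX, 81.6, 84.6 and 111 CPM in E2, 77.9, 81.5 and 90.3 CPM in E4, and 64.8, 69.4 and 85.4 CPM in TAM. Every E2 and every E4 library was above the OVX median, but OVX C5 at 116 CPM was the highest of the 24 libraries, and all groups overlapped. No comparison passed: E2 stood 0.20 above OVX (interval -0.04 to 0.43, edgeR adjusted p = 0.437) and the difference of TAM from E2 was -0.32 (interval -0.55 to -0.08, adjusted p = 0.0995). This changed without OVX C5 and TAM C35, when E2 exceeded OVX by 0.34 (edgeR adjusted p = 0.00662), E4 exceeded OVX by 0.23 (adjusted p = 0.0357) and TAM differed from E2 by -0.36 (adjusted p = 0.00330). The correlation of log2 levels with the white adipocyte markers was 0.77 over the 24 libraries and 0.76 without these libraries, and with that list as a covariate E2 differed from OVX by 0.02 (edgeR adjusted p = 0.893) and E4 from OVX by 0.22 (adjusted p = 0.0589). With the ganglion list, E2 exceeded OVX by 0.32 (edgeR adjusted p = 0.00456), E4 exceeded OVX by 0.27 (adjusted p = 0.0153) and TAM differed from E2 by -0.33 (adjusted p = 0.00246). With the macrophage list, the sign of the E2 difference from OVX turned (-0.18, edgeR adjusted p = 0.498), and so did that of TAM from E2 (0.12, adjusted p = 0.726). That list cannot be told apart from the E2 treatment. With the B cell list, E2 stood 0.23 above OVX (edgeR adjusted p = 0.457).

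Hsd17b12 encodes a reductase of fatty acid elongation that can also reduce estrone. It passed no comparison. The medians were 142 CPM in OVX, 141 CPM in E2, 142 CPM in E4 and 125 CPM in TAM, and the extremes of the 24 libraries were 119 and 183 CPM. The interval of the difference from OVX was -0.20 to 0.12 for E2 and -0.17 to 0.15 for E4, on the log2 scale. TAM stood lowest, with a difference of -0.18 from OVX (interval -0.34 to -0.02, unadjusted p = 0.0294, edgeR adjusted p = 0.188).

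Hsd17b1, the ovarian and placental enzyme that reduces estrone to estradiol, was counted with 5 to 42 reads per library. Its lowest, median and highest level was 0.422, 0.583 and 0.892 CPM in OVX, 0.440, 0.535 and 0.689 CPM in E2, 0.203, 0.401 and 0.609 CPM in E4, and 0.302, 0.525 and 0.624 CPM in TAM. The group ranges overlapped, and the largest difference, E4 from OVX, was -0.52 (SE 0.23, interval -0.99 to -0.05, unadjusted p = 0.0331, edgeR adjusted p = 0.104).

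The remaining estrogen-inactivating members were at the limit of detection. Hsd17b2, which oxidizes estradiol to estrone, had 0 counts in 17 of 24 libraries and at most 5 counts, with 11 reads summed over the 6 OVX libraries, 1 over E2, 2 over E4 and 3 over TAM. Sult1e1, the estrogen sulfotransferase, had 0 counts in 20 of 24 libraries, at most 3 counts in any library and none in the 6 E2 libraries. A count of 0 allows a level of up to 0.0453 to 0.122 CPM depending on the library, for counting error only. Hence no fold change is given for Hsd17b2 or Sult1e1. The bound for a count of 0 takes each count as independent. Small whole counts were odd less often than even (median ratio 0.794 over the libraries), and the reason was not tested.

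**Figure D4:**
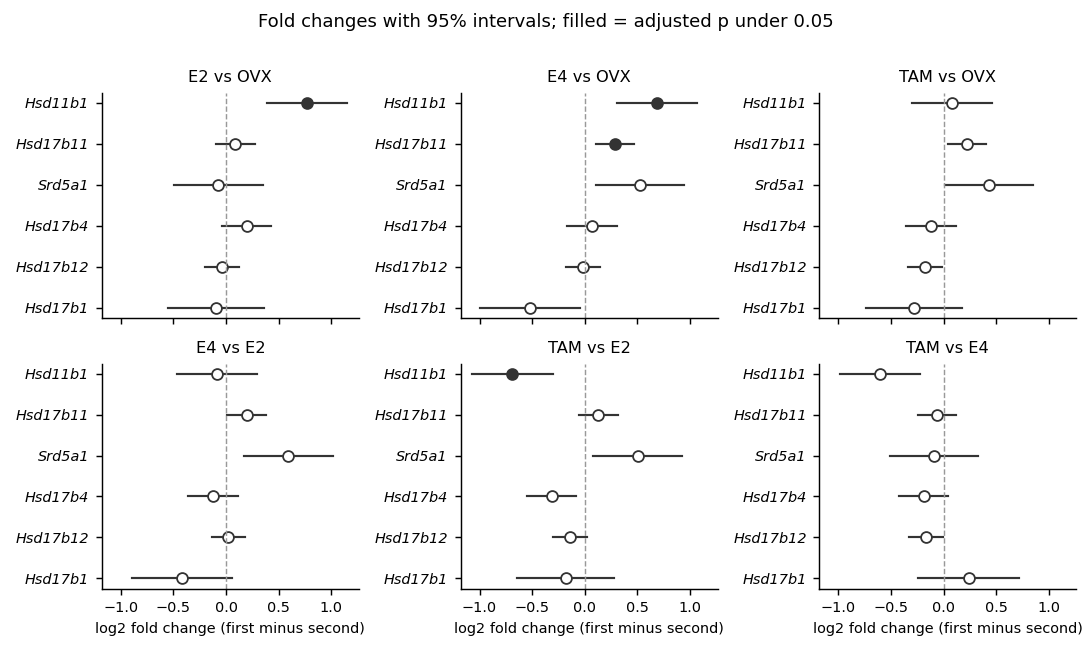
Log2 fold change of the 6 tested members in each of the 6 comparisons, with 95% intervals from the common fit of 24 libraries and filled points where the adjusted p is under 0.05. The filled points are Hsd11b1 in E2 vs OVX, E4 vs OVX and TAM vs E2, and Hsd17b11 in E4 vs OVX.

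Counted over the 6 tested members, 1 rose in E2 against OVX, where 4.14% of all genes passed the test in either direction and 2.87% rose. In E4 against OVX, 2 of 6 rose, against a background of 22.0% in either direction and 9.50% that rose. TAM against OVX had 0 of 6 past the edgeR test (background 2.23%), with 3 members at an unadjusted p under 0.05 (21.0% of all genes) and 0 by DESeq2. E4 against E2 also had 0 of 6 (background 12.6%), with 2 at an unadjusted p under 0.05 (30.2% of all genes) and 1, Srd5a1, by DESeq2. TAM against E2 had 1 of 6, lower (background 6.40% in either direction and 4.48% lower). TAM against E4 had 0 of 6 (background 0.343%), with 2 at an unadjusted p under 0.05 (9.12% of all genes) and 0 by DESeq2. With 6 genes, these counts are too small to set the members apart as a group. The 3 comparisons against OVX share the OVX libraries, and the median log2 fold change of the 6 members was 0.03 in E2, 0.18 in E4 and -0.02 in TAM, beside 0.01, -0.01 and -0.0031 over all genes.

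The members did not move as a block across mice. Over the 24 libraries, Hsd17b11 and Srd5a1 varied together (r = 0.77 for log2 levels, 0.66 after the group means were removed), and so did Hsd17b4 and Hsd11b1 (0.70 and 0.61). Srd5a1 ran against Hsd17b4 (-0.51 and -0.58) and, within groups, against Hsd11b1 (-0.27 and -0.61). These correlations describe shared libraries, which also share their makeup of cell types, and no test was made of them.

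The genes whose log2 levels were most like those of each member over the 24 libraries, among 19529 genes, were as follows, as a description. For Hsd11b1 they were Mecr (r = 0.87), G6pdx (0.86) and Mlxipl (0.85). For Srd5a1 they were Dirc2, Sall2 and Mras (0.95, 0.95 and 0.94), and for Hsd17b4 Trap1, Adipor2 and Poldip2 (0.95, 0.92 and 0.91). Fam168b, Foxj3 and Otud7b were closest to Hsd17b11 (each 0.90). Ldha, Gm5987 and Lonp2 were closest to Hsd17b12 (0.81, 0.78 and 0.78), the lowest values among these members. Hsd17b1, with a mean under 1 CPM, was left out of this comparison.

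The surrounding pathway was read from 67 further genes of steroid synthesis, reduction, conjugation and hydroxylation, of which 66 were found and 37 were tested. Of the 66, 19 had at most 3 counts in every library, among them the aromatase gene Cyp19a1, the testicular Hsd17b3, the aldosterone synthase Cyp11b2 and the hepatic sulfotransferase Sult2a1. Past the test were 4 of the 37 genes in E2 against OVX, all higher (4.14% of all genes), 7 in E4 against OVX, 4 of them higher (22.0% of all genes), and 1 in TAM against OVX, lower (2.23% of all genes). In E4 against E2, 5 genes passed (12.6% of all genes), with 3 in TAM against E2 (6.40%) and 0 in TAM against E4 (0.343%), where 2 had an unadjusted p under 0.05. The median log2 fold change of the 37 genes was 0.04 in E2, -0.01 in E4 and -0.02 in TAM against OVX.

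In E2 against OVX the lowest adjusted p-values in this list were those of Akr1c14 and Akr1c18, aldo-keto reductases that act on ring and side-chain ketones of steroids, the latter known for inactivating progesterone. Akr1c14 had a lowest, median and highest level of 11.05, 14.9 and 17.6 CPM in OVX and of 23.4, 39.4 and 59.1 CPM in E2, without overlap (2.82% of all genes). In E4 it was 11.7, 15.1 and 18.5 CPM and in TAM 11.96, 15.3 and 19.6 CPM, within or close to the OVX range. It rose 2.68-fold in E2 (log2 fold change 1.42, SE 0.17, edgeR adjusted p = 5.74e-06) and was lower in E4 than in E2 (-1.40, SE 0.17, adjusted p = 2.85e-05) and in TAM than in E2 (-1.37, SE 0.17, adjusted p = 1.16e-05). Akr1c18 rose 2.42-fold in E2 (log2 fold change 1.28, SE 0.29, edgeR adjusted p = 0.00985) and was lower by -1.49 in E4 (adjusted p = 0.00247) and by -1.75 in TAM (adjusted p = 0.000564) than in E2. These genes belong to a family of near-identical copies, and reads may have been split among them. With the macrophage list as a covariate, which cannot be told apart from the E2 treatment, all these calls were lost. The E2 difference from OVX was then 0.78 for Akr1c14 (edgeR adjusted p = 0.0987) and 0.13 for Akr1c18 (adjusted p = 0.863), that of E4 from E2 was -0.66 (adjusted p = 0.304) and -0.15 (adjusted p = 0.900), and that of TAM from E2 was -0.65 (adjusted p = 0.196) and -0.43 (adjusted p = 0.601). In that fit 0 genes in all passed in E4 against E2. With the white adipocyte list, Akr1c18 no longer passed in E4 against E2 (-1.10, edgeR adjusted p = 0.0784) or TAM against E2 (-1.21, adjusted p = 0.0809).

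**Figure D5:**
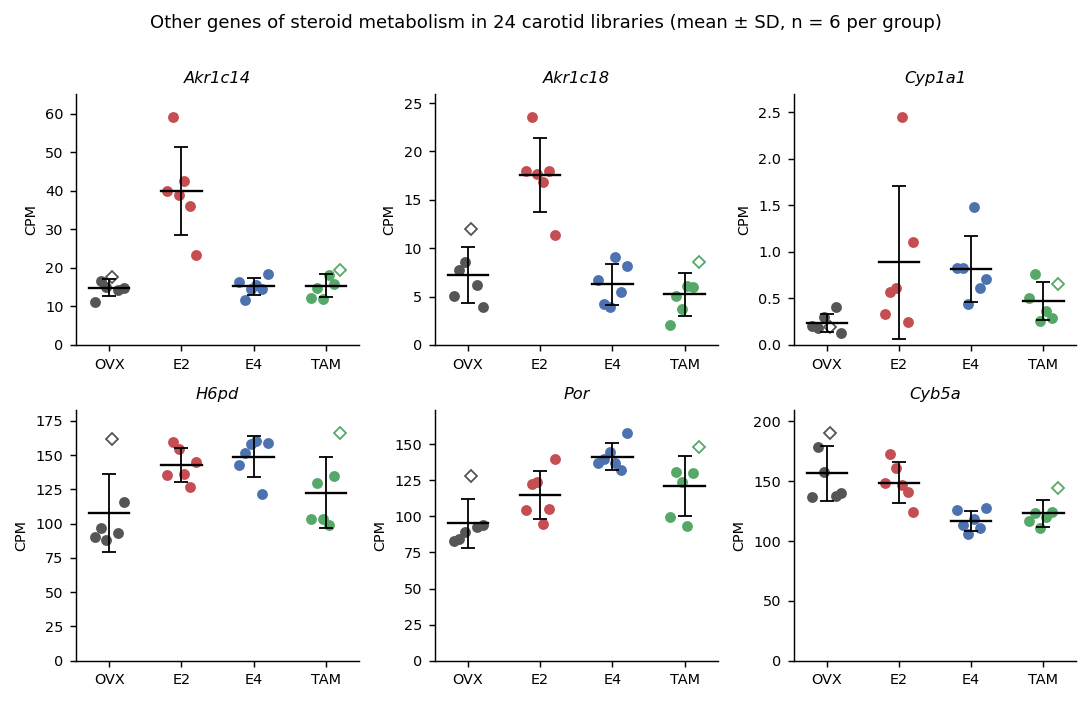
Level in CPM of 6 other genes of steroid metabolism in every library, by group, with the mean and SD (n = 6 per group) and open diamonds for OVX C5 and TAM C35. All 6 E2 libraries of Akr1c14 lie above those of the other groups, and all 6 E4 libraries of Por lie above and those of Cyb5a below the OVX libraries.

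Cyp1a1, a hydroxylase of estrogens and foreign compounds, rose in E2 and in E4 from a very low level. Its median was 0.202 CPM in OVX, 0.588 CPM in E2, 0.765 CPM in E4 and 0.431 CPM in TAM, and the log2 fold change was 1.87 in E2 (SE 0.47, edgeR adjusted p = 0.0196) and 1.76 in E4 (SE 0.47, adjusted p = 0.0117). E2 C26 at 2.45 CPM was the highest library, and without it the E2 call was lost, as it was without OVX C25, with an adjusted p of up to 0.0918. In the single fits without 1 library the E2 value ranged from 1.24 to 2.09, and the E2 call was also lost with the macrophage list (1.57, edgeR adjusted p = 0.237) and when only E2 and OVX were fitted (1.86, adjusted p = 0.0890). Gusb, the lysosomal enzyme that can free steroids from glucuronides, rose in E2 as well (0.30, SE 0.08, edgeR adjusted p = 0.0306), with E2 libraries between 49.5 and 56.4 CPM above the OVX range of 40.1 to 48.1 CPM, a separation that 2.82% of all genes had. That call was lost in 8 of the 24 fits without 1 library, with the white adipocyte list (0.27, edgeR adjusted p = 0.0659), with the macrophage list (0.012, adjusted p = 0.962) and with no filter on low counts (0.29, adjusted p = 0.0794). For both Cyp1a1 and Gusb, the macrophage list cannot be told apart from the E2 treatment.

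In E4 against OVX, the electron donors of microsomal cytochromes P450 differed in opposite directions. All 7 calls of this list in E4 against OVX were lost with the B cell list as a covariate, where Por was at 0.69 (edgeR adjusted p = 0.0681), Cyb5a at -0.25 (adjusted p = 0.381) and Papss1 at 0.14 (adjusted p = 0.653). In that fit 0.407% of all genes passed in E4 against OVX, in place of 22.0%, so the loss does not set these genes apart. Fibroblast markers were also lower in E4, with 4 of 6 past the test and a median log2 fold change of -0.61, and their part was not tested. Por, the cytochrome P450 reductase, lay between 132 and 158 CPM in E4, above the OVX range of 82.6 to 128 CPM, a separation that 9.38% of all genes had (log2 fold change 0.57, SE 0.12, edgeR adjusted p = 0.00253). Cyb5a, cytochrome b5, lay between 106 and 127 CPM in E4, below the OVX range of 137 to 190 CPM (-0.42, SE 0.09, adjusted p = 0.00373). Cyb5a was also lower in E4 than in E2 (-0.35, edgeR adjusted p = 0.0183) and in TAM than in OVX (-0.35, adjusted p = 0.0496), the last of these passing in 6 of the 24 fits without 1 library and not without OVX C5 and TAM C35 (-0.33, adjusted p = 0.0587). The call of E4 against E2 was lost without E2 C8 (adjusted p = 0.0600), with the B cell list (-0.26, edgeR adjusted p = 0.158) and with the white adipocyte list (-0.14, adjusted p = 0.491), and its sign turned with the macrophage list (0.056, adjusted p = 0.880). The last of these lists cannot be told apart from the E2 treatment. Papss1, which makes the sulfate donor that sulfotransferases use, rose in E4 (0.32, SE 0.09, edgeR adjusted p = 0.0130), while the sulfotransferase Sult1e1 itself was not detected above 1 count there. Named after their values were seen, Hsd3b7 (-0.29, edgeR adjusted p = 0.0457) and Ugdh (-0.35, adjusted p = 0.0283) fell in E4. Without OVX C5 and TAM C35 neither passed (-0.18, adjusted p = 0.112, and -0.22, adjusted p = 0.0803). In fits without 1 library the Hsd3b7 call held in 9 of 24 and was lost without E4 C38 among others, and the Ugdh call was lost without OVX C5, E4 C19 or E4 C20. When only E4 and OVX were fitted, the Hsd3b7 value was -0.28 (edgeR adjusted p = 0.0730) and that of Ugdh -0.34 (adjusted p = 0.0669). With the ganglion, B cell, white adipocyte and macrophage lists as covariates, Hsd3b7 was at -0.12, -0.084, -0.18 and -0.21 (edgeR adjusted p = 0.245, 0.860, 0.134 and 0.0774). Ugdh was then at -0.19, -0.14, -0.24 and -0.27 (edgeR adjusted p = 0.144, 0.763, 0.0918 and 0.0530), so that neither call passed in these fits. The exons of Hsd3b7 overlap those of another gene over 62.0% of their length.

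Among further estrogen-metabolizing genes, Cyp3a13 was higher in E4 than in E2 (0.59, edgeR adjusted p = 0.0173), as was Cyp7b1, named after its values were seen (0.68, adjusted p = 0.0453). The Cyp7b1 call held in 9 of the 24 fits without 1 library (adjusted p up to 0.0966), and that of Cyp3a13 was lost without E2 C8 (adjusted p = 0.0534). T cell markers summed to 2.65 to 5.79 CPM in E4 and 5.96 to 130 CPM in E2, with all 6 lower in E4, as were 4 of 6 fibroblast markers, and their part was not tested. The 130 CPM was that of E2 C9, with the other E2 libraries at 5.96 to 17.3 CPM. All 6 macrophage markers were lower in E4 than in E2 as well, and with that list Cyp3a13 was at 0.47 (edgeR adjusted p = 0.429) and Cyp7b1 at 0.34 (adjusted p = 0.698). In that fit 0 genes in all passed in E4 against E2, and the list cannot be told apart from the E2 treatment. Neither Cyp3a13 nor Cyp7b1 passed with the B cell list or the white adipocyte list. Of the other 17-beta-hydroxysteroid dehydrogenases, 5 of 8 were tested and 1 passed, Hsd17b14, which oxidizes estradiol in vitro and was higher in TAM than in E2 (0.53, edgeR adjusted p = 0.0406). Hsd17b14 libraries lay between 2.32 and 3.55 CPM in TAM and between 1.06 and 2.29 CPM in E2, without overlap, a separation that 4.23% of all genes had in this comparison. Its call was lost in 8 of the 24 fits without 1 library, when only TAM and E2 were fitted (0.54, adjusted p = 0.115), and with the B cell, white adipocyte and macrophage lists as covariates (0.52, 0.34 and 0.19, edgeR adjusted p = 0.0692, 0.372 and 0.733). Here too the macrophage list cannot be told apart from the E2 treatment.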

How the data were processed

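RNA of whole carotid arteries was sequenced by the authors (TruSeq Stranded mRNA, paired ends). Per the labels, reads went through bcl2fastq 2.17, Trim Galore, Bowtie2 and featureCounts on mm10 (GRCm38). The strand setting and the other versions are not given in the sources used here. The deposited expected counts hold fractions for 8.87% to 9.80% of values and were rounded to whole numbers. Symbols came from GENCODE M21 (55240 of 55421 identifiers).

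Groups were taken from the sample titles. One edgeR (4.0.16, R 4.3.3) quasi-likelihood fit of 24 libraries with TMM scaling and filterByExpr tested 25056 genes, each p two-sided and adjusted by Benjamini-Hochberg, with 0.05 as threshold. Levels are CPM on effective library sizes, and log2 CPM used a prior count of 2. The detection floor was 3 counts, intervals are at 95%, and floors cover counting error only. Nothing says that mice were caged or processed apart, so p-values measure the spread between these libraries. The code was tested on simulated counts.

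Alternatives were DESeq2 (1.42.0), RLE scaling, other filters, subsets of libraries, marker lists as covariates and 24 fits without 1 library. Besides the 8 members, named pathway genes were those past the test with a log2 change over 1, and the called genes among the 4 with the lowest adjusted p per comparison. H6pd, Hsd11b2, Hsd3b7, Ugdh and Cyp7b1 fall outside this rule and were named after their values were seen, as were undetected genes given as examples. For likeness, genes with a mean of at least 1 CPM were ranked by Pearson r. The members and lists were chosen with earlier results of these data known. Promoter windows of 5 members were used here, and the other members' promoters were not analysed here.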

Additional observations from a re-analysis of the deposited data

Results flagged for a closer look

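In 120 groups of 6 libraries checked for 1 library far from the rest, 17 had one, and chance alone gives about 1 in 20 groups. Among the members there were 3 in 24 groups. Hsd17b12 stood at 183 CPM in OVX C5 (others 125 to 146 CPM) and at 166 CPM in E4 C16 (others 134 to 145 CPM). Hsd17b4 stood at 116 CPM in OVX C5 (others 64.6 to 79.6 CPM).

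Among the other genes of steroid metabolism, Por was 128 CPM in OVX C5 (others 82.6 to 94.2 CPM), Gusb was 54.0 CPM in TAM C35 (others 42.0 to 46.0 CPM) and Cyp1a1 was 1.48 CPM in E4 C36 (others 0.445 to 0.829 CPM). Cyp7b1 was low in E2 C8, at 0.945 CPM (others 2.27 to 2.92 CPM).

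Summed marker lists stood apart as well. In TAM C35, sympathetic ganglion markers were at 159 CPM (others 4415 to 6487 CPM), smooth muscle markers at 9064 CPM (others 3268 to 4642 CPM) and skeletal muscle markers at 254 CPM (others 57.4 to 89.9 CPM). Macrophage markers were at 416 CPM in OVX C5 (others 238 to 287 CPM). In E2, T cell markers were at 130 CPM in C9 (others 5.96 to 17.3 CPM) and B cell markers at 16.04 CPM in C27 (others 5.25 to 8.98 CPM). In E4, thyroid and parathyroid markers were at 2989 CPM in C38 (others 28.4 to 132 CPM), and in C39 endothelial markers were at 974 CPM (others 639 to 762 CPM) and white adipocyte markers at 5013 CPM (others 3427 to 3885 CPM). The read total of E4 C38 was 24647246, below the 37505055 to 44224858 of the other E4 libraries.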

How the results depend on the processing

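Members past the test numbered 1 in E2 vs OVX, 2 in E4 vs OVX, 0 in TAM vs OVX, 0 in E4 vs E2, 1 in TAM vs E2 and 0 in TAM vs E4, and other pathway genes 4, 7, 1, 5, 3 and 0 in the same order. The shares of all genes past the test were 4.14%, 22.0%, 2.23%, 12.6%, 6.40% and 0.343%. The counts below are those that moved by over 1.5 times, each followed by the share of all genes that passed in that same fit, and the cause was not tested. The macrophage covariate was chosen after seeing the data. Its sums did not overlap between E2 and the other groups, so it cannot be told apart from the E2 treatment.

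With the first range of animal numbers only, E2 vs OVX had 0 members and 1 pathway gene (1.34%), E4 vs OVX had 0 members and 3 pathway genes (12.1%) and TAM vs OVX had 0 pathway genes (0.00393%). With the second range only, E2 vs OVX had 0 members and 0 pathway genes (0.361%), E4 vs OVX had 0 members and 0 pathway genes (0.0196%), TAM vs OVX had 0 pathway genes (0%), E4 vs E2 had 0 pathway genes (0%) and TAM vs E2 had 0 members and 0 pathway genes (0.451%). With OVX C5 and TAM C35 left out, E2 vs OVX had 2 members (6.60%), TAM vs OVX had 0 pathway genes (1.07%), E4 vs E2 had 1 member and 10 pathway genes (25.6%), TAM vs E2 had 3 members and 8 pathway genes (13.2%) and TAM vs E4 had 1 member (0.432%). With the ganglion list as covariate, E2 vs OVX had 2 members and 7 pathway genes (8.67%), TAM vs OVX had 3 pathway genes (5.61%), E4 vs E2 had 1 member (16.3%), TAM vs E2 had 3 members and 7 pathway genes (13.2%) and TAM vs E4 had 1 member and 1 pathway gene (0.535%). With the B cell list as covariate, E4 vs OVX had 0 members and 0 pathway genes (0.407%), TAM vs OVX had 0 pathway genes (0.0599%) and E4 vs E2 had 2 pathway genes (2.89%). With the white adipocyte list as covariate, E2 vs OVX had 7 pathway genes (7.10%), E4 vs OVX had 1 member (16.8%), TAM vs OVX had 3 pathway genes (1.15%), E4 vs E2 had 2 pathway genes (2.47%) and TAM vs E2 had 0 members and 5 pathway genes (3.57%). With the macrophage list as covariate, E2 vs OVX had 0 members (1.96%), TAM vs OVX had 3 pathway genes (2.97%), E4 vs E2 had 0 pathway genes (0%) and TAM vs E2 had 0 members (1.62%). The pathway genes called in the main fit in E2 vs OVX and in TAM vs E2 did not pass there, so any that passed were other genes. With a log2 change over 1 required as well, E2 vs OVX had 0 members (1.27%), E4 vs OVX had 0 members and 1 pathway gene (2.51%), TAM vs OVX had 0 pathway genes (0.315%), E4 vs E2 had 2 pathway genes (2.49%) and TAM vs E2 had 0 members (1.65%). With only the 2 groups compared, E4 vs OVX had 1 member (18.3%), TAM vs OVX had 0 pathway genes (0.162%), E4 vs E2 had 1 member and 9 pathway genes (22.0%) and TAM vs E2 had 0 members (4.83%). With DESeq2, E4 vs E2 had 1 member (16.2%). With at least 10 counts in every library, E4 vs E2 had 1 member (14.8%). With RLE size factors, TAM vs OVX had 0 pathway genes (2.84%). With no filter on low counts, TAM vs OVX had 0 pathway genes (0.498%). With the number range as covariate, TAM vs OVX had 0 pathway genes (1.60%).

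Over the 24 fits without 1 library, members numbered 1 to 2 in E2 vs OVX, 1 to 3 in E4 vs OVX, 0 to 0 in TAM vs OVX, 0 to 1 in E4 vs E2, 0 to 2 in TAM vs E2 and 0 to 1 in TAM vs E4, and pathway genes 2 to 6 in E2 vs OVX, 5 to 10 in E4 vs OVX, 0 to 1 in TAM vs OVX, 2 to 8 in E4 vs E2, 2 to 5 in TAM vs E2 and 0 to 0 in TAM vs E4. The share of all genes past the test in these fits was 3.18% to 4.99% in E2 vs OVX, 13% to 25.3% in E4 vs OVX, 0.301% to 3.46% in TAM vs OVX, 5.69% to 17% in E4 vs E2, 3.99% to 8.08% in TAM vs E2 and 0.249% to 0.467% in TAM vs E4.

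The log2 differences that changed sign had not passed the test, apart from that of Cyb5a in E4 vs E2. With the first range of animal numbers only, the value was 0.064 for Hsd17b1 in E2 vs OVX, -0.028 for Hsd17b4 in E4 vs OVX and -0.15 for Hsd11b1 in TAM vs OVX. With the macrophage list as covariate, the value was -0.18 for Hsd17b4 in E2 vs OVX, 0.33 for Hsd17b4 in E4 vs E2, 0.12 for Hsd17b4 in TAM vs E2, -0.019 for Hsd17b11 in TAM vs E2, 0.0072 for Hsd17b12 in E4 vs OVX, 0.47 for Hsd11b1 in E4 vs E2, 0.55 for Srd5a1 in E2 vs OVX, -0.10 for Srd5a1 in E4 vs E2, -0.18 for Srd5a1 in TAM vs E2 and 0.056 for Cyb5a in E4 vs E2. With the second range only, the value was 0.046 for Hsd17b4 in TAM vs OVX, 0.0043 for Hsd17b4 in E4 vs E2, 0.0082 for Hsd17b12 in E2 vs OVX, 0.0046 for Hsd17b12 in E4 vs OVX and -0.0036 for Hsd17b12 in E4 vs E2. With the white adipocyte list as covariate, the value was 0.14 for Hsd17b4 in TAM vs OVX, 0.20 for Hsd17b4 in E4 vs E2, 0.12 for Hsd17b4 in TAM vs E2, -0.035 for Hsd17b11 in TAM vs E2, 0.043 for Hsd17b12 in E4 vs OVX, 0.026 for Hsd17b12 in TAM vs E2, 0.42 for Hsd11b1 in E4 vs E2, 0.30 for Srd5a1 in E2 vs OVX and -0.19 for Srd5a1 in TAM vs E2. With OVX C5 and TAM C35 left out, the value was 0.036 for Hsd17b12 in E2 vs OVX and 0.073 for Hsd17b12 in E4 vs OVX. With the ganglion list as covariate, the value was 0.0068 for Hsd17b12 in E2 vs OVX, 0.058 for Hsd17b12 in E4 vs OVX, 0.034 for Hsd11b1 in E4 vs E2 and 0.049 for Srd5a1 in TAM vs E4. With the B cell list as covariate, the value was 0.0064 for Hsd17b12 in E2 vs OVX, 0.074 for Hsd17b12 in E4 vs OVX, 0.089 for Hsd11b1 in E4 vs E2 and 0.023 for Srd5a1 in TAM vs E4. With DESeq2, the value was 0.0028 for Hsd17b12 in E4 vs OVX. With RLE size factors, the value was 0.0027 for Hsd17b12 in E4 vs OVX.

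In fits without 1 library the sign changed within these ranges, -0.19 to 0.045 for Hsd17b1 in E2 vs OVX, -0.17 to 0.025 for Hsd17b4 in TAM vs OVX, -0.077 to 0.036 for Hsd17b12 in E2 vs OVX, -0.055 to 0.073 for Hsd17b12 in E4 vs OVX, -0.019 to 0.044 for Hsd17b12 in E4 vs E2, -0.078 to 0.20 for Hsd11b1 in TAM vs OVX and -0.20 to 0.065 for Srd5a1 in E2 vs OVX.

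No paired analysis was possible because the groups share no animal numbers. Hsd17b1, with 5 to 42 reads a library, and Cyp1a1 had few reads, and Hsd17b2 and Sult1e1 were at the floor. Whether more depth would change their results was not tested.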
